A study of Mus musculus with 8 samples.

Results

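The immediate early genes studied here are 10 transcripts that encode or accompany fast-acting transcription factors: Fos, Fosb, Fosl1, Jun, Junb, Egr1, Atf3, Ier2, Ier3 and Myc. They were chosen by symbol from a table of 19126 genes, and all 10 were found and passed the filter on low counts, which kept 15096 genes. The samples are 8 left ears, sequenced as bulk RNA, of C57BL/6 mice aged 6 to 8 weeks in which allergic contact dermatitis, a skin inflammation set off by repeated contact with a sensitiser, had been induced. All 8 mice had 25 µL of 0.3% dinitrofluorobenzene (DNFB, the sensitiser) on the first day and 10 µL of 0.25% DNFB on the left ear on day 6. The inhibitor group, 4 mice, was injected into the peritoneum with 10 mg/kg of MMP-9-IN-1, a small molecule that targets matrix metalloproteinase 9, a gelatinase. The vehicle group, 4 mice, received the solvent alone, which was 10% DMSO, 40% PEG300 and 50% PBS. Ears were taken after 4 days of treatment, and mice without DNFB are not analysed here. Titles give numbers 1 to 4 within each group. The same number in both groups names 2 different mice, and whole ear tissue mixes epidermis, dermis, cartilage, muscle, blood and infiltrating leukocytes.

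Immediate early genes are switched on within minutes of growth factors, cytokines, wounding or stress, without new protein synthesis. Mitogen-activated protein kinases phosphorylate factors already bound at their promoters, chiefly serum response factor with its ELK partners and CREB, and their transcripts are short-lived. FOS proteins (Fos, Fosb, Fosl1) pair with JUN proteins (Jun, Junb) as the dimeric factor AP-1, which in skin drives keratinocyte proliferation, inflammatory mediators and matrix metalloproteinases. Egr1 is a zinc finger factor of the same early wave, Atf3 a stress-induced bZIP factor that can pair with JUN proteins, Ier2 a nuclear regulator, Ier3 a stress-induced survival regulator that is not itself a DNA-binding factor, and Myc a driver of ribosome production and growth.

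Promoters of 6 members were at hand in RefSeq's table (build GRCm38.p6): Fos, Fosb, Jun, Junb, Atf3 and Ier3. The 250 bases before the start were searched for the CArG box bound by serum response factor, the AP-1 motif TGANTCA and the cAMP response element TGACGTCA, on both strands. None of the 6 windows held any of them, against 1.47%, 6.75% and 1.55% of the 32851 promoters in the table. The letters TGACG, which form part of the cAMP response element and were searched after the others, occurred in 4 of the 6 on either strand and in 17.8% of all promoters. The GC content was 58.4% (Fos), 68.8% (Fosb), 61.2% (Jun), 66.4% (Junb), 65.2% (Atf3) and 54.4% (Ier3), against a median of 52.4% over all promoters. The 17.8% is not matched for GC content. The letters TATAAA, which were also not among the motifs first chosen, were searched on the forward strand only. They occurred in Fos alone of the 6 and in 7.59% of all promoters. The 4 windows that hold TGACG are shown so that its place in each can be compared. Jun and Ier3, whose windows lack it, had the same 3 highest ears as these 4 genes. The sequences have TGACG (or CGTCA, its other strand) and TATAAA in capitals. They lie at chr12:85473640-85473889 on the plus strand (Fos), chr7:19310046-19310295 on the minus strand (Fosb), chr8:84978749-84978998 on the minus strand (Junb) and chr1:191183334-191183583 on the minus strand (Atf3).
Fos: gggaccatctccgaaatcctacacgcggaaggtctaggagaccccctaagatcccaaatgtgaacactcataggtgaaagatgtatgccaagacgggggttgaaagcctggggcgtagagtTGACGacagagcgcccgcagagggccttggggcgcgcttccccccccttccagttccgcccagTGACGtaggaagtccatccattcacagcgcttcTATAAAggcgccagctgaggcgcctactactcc
Fosb: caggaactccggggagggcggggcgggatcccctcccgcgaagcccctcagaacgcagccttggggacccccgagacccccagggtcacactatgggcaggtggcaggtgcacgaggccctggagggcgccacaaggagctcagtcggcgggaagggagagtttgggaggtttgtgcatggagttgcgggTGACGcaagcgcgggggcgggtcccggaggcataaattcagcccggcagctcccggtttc
Junb: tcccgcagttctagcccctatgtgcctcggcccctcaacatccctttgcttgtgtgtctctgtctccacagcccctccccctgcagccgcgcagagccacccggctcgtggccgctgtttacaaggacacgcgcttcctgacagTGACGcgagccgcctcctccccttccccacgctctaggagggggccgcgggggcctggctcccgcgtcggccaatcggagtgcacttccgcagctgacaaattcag
Atf3: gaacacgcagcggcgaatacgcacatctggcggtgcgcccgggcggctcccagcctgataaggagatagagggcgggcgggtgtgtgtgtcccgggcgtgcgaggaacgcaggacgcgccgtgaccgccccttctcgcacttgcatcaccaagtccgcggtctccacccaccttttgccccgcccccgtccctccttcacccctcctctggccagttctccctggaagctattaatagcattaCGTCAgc
In Fos the motif nearest the start lay 66 to 62 bases before it, in Fosb 60 to 56, in Junb 106 to 102 and in Atf3, on the other strand, 7 to 3. A match of letters is a description of the sequence and not a bound site, and no match says only that the letters are not in this window.

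The 8 libraries held between 13863145 and 18512200 reads. The ears stood apart by number: on the first principal component of the 500 most variable genes outside the members, which took 68.4% of their variance, vehicle mice 1 and 2 scored 50.7 and 54.9, inhibitor mice 1 and 2 scored 15.9 and 23.7, and the other 4 ears scored between -38.4 and -34.4. Keratinocyte markers summed to between 10025 and 27031 TPM over the ears (a level scaled to gene length and to the library total), with all 8 markers detected in each library. In whole tissue, more cells of a type and more RNA per cell cannot be told apart. TPM describes levels here, and differences were tested on counts with edgeR's quasi-likelihood test and Benjamini-Hochberg adjustment over all genes.

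Immediate early transcripts were high in 3 of the 8 ears, and those 3 came from both groups. In 9 of the 10 genes, all but Myc, the 3 highest libraries were vehicle mice 1 and 2 and inhibitor mouse 2, and 8 genes peaked in vehicle mouse 2. The summed level of the 10 was 4625, 5519, 454 and 591 TPM in vehicle mice 1 to 4 and 970.2, 2629, 575 and 649 TPM in inhibitor mice 1 to 4. No gene of the 10 passed an adjusted p of 0.05 between inhibitor and vehicle, where 0 of 15096 genes tested did (0%), and each of the 10 had an adjusted p of 0.999. At an unadjusted p under 0.05 there were 0 members and 157 genes overall (1.04%). By DESeq2 and by limma-voom with quality weights the count of called genes was 0 as well. At an unadjusted p under 0.05 there were 332 of 19082 genes by DESeq2, which was run without the low-count filter. By limma-voom there were 296 of 15096 genes. In both, 0 members were among them. For none of the 10 did the groups separate (no overlap on log2 CPM, found in 1.19% of genes tested).

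The inhibitor estimate was below vehicle for 9 of the 10 genes, against 45.5% of all genes tested, with a median log2 fold change of -1.30 against 0.026 over all genes. The 9 genes share their high ears and are not 9 separate observations. With the mouse number as a block, 9 were again lower, against 45.6% of all genes, with a median of -0.76 and 0 members past the adjusted threshold, where 0% of genes passed; 0 members had an unadjusted p under 0.05, as 4.8% of genes did. On log2(TPM + 1) with limma-trend the median was -0.58 against 0.15 over all genes, with -0.20 for Fos, -0.34 for Fosb and -0.54 for Fosl1. The sign of the estimates turned without mouse numbers 1 and 2 in either group, where 0 of 10 were lower and the median was 0.21. It turned as well under limma-voom with quality weights, which weighted vehicle mice 1 and 2 at 0.333 and 0.316 and left 0 of 10 lower with a median of 0.27. Vehicle mouse 2 and inhibitor mouse 2 carried most weight singly, the median being -0.61 without the first and -2.03 without the second.

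**Figure D1:**
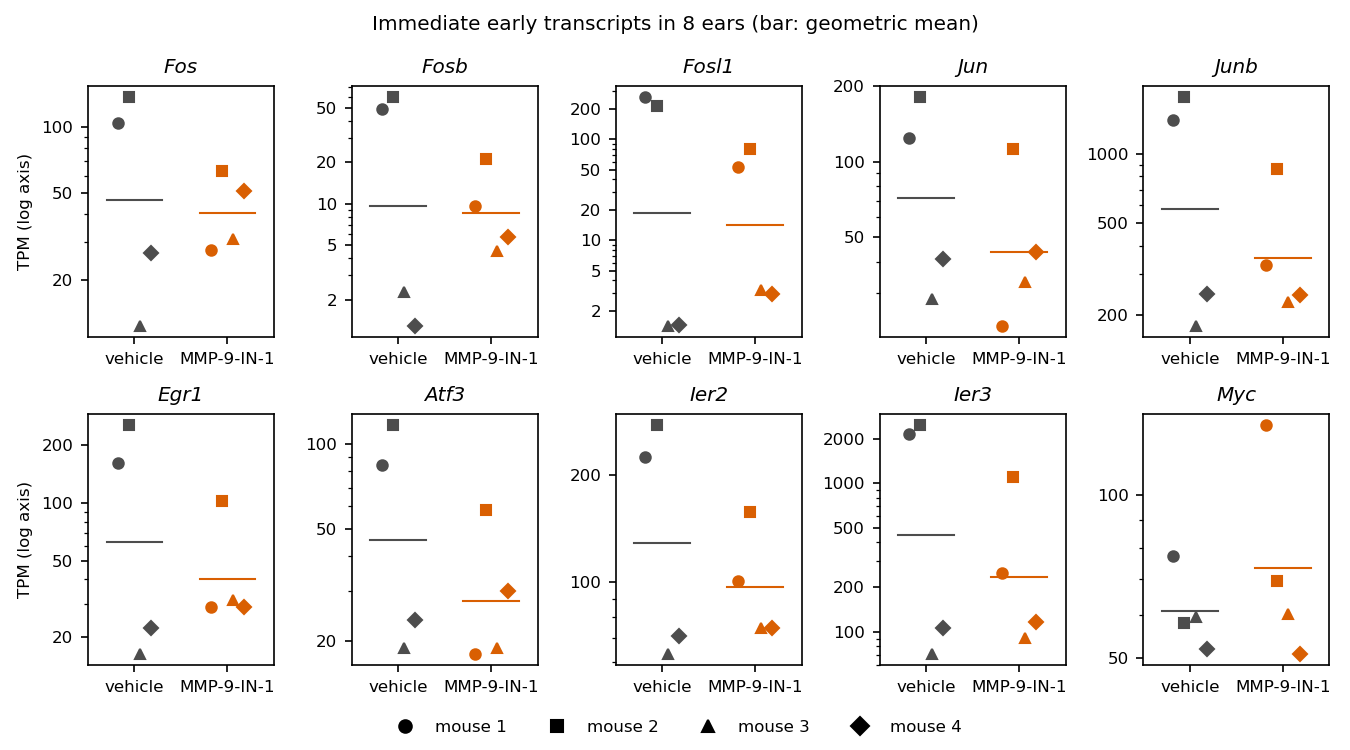
TPM (log axis) of each of the 10 genes in vehicle (grey) and MMP-9-IN-1 (orange) ears; symbols are mice 1 to 4 and bars are geometric means. In every panel except Myc the 3 highest points are vehicle mice 1 and 2 and inhibitor mouse 2.

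FOS proteins need a JUN partner to bind DNA, and of Fos, Fosb and Fosl1, Fos had the narrowest range. Fos stood at 104, 137, 12.4 and 26.6 TPM in vehicle mice 1 to 4 and 27.6, 62.9, 30.9 and 51.2 TPM in inhibitor mice 1 to 4. Both extremes were vehicle ears, 11.0-fold apart, and the inhibitor ears lay between them. The edgeR log2 fold change of Fos, inhibitor against vehicle, was -0.99 (SE 0.80), and inhibitor minus vehicle was -2.24, -1.41, 1.35 and 0.96 log2 CPM for mouse numbers 1 to 4. It was thus lower in the inhibitor ear for numbers 1 and 2 and higher for numbers 3 and 4.

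Fosb, the close relative of Fos known for its long-lived splice form in neurons, was the lowest of the 10 on average. Fosb stood at 48.4, 59.2, 2.26 and 1.29 TPM in vehicle mice 1 to 4 and 9.53, 20.9, 4.52 and 5.70 TPM in inhibitor mice 1 to 4. The lowest values were vehicle mice 3 and 4, below all 4 inhibitor ears, and the vehicle ears spanned 45.9-fold against 4.63-fold among inhibitor ears. Its log2 fold change was -1.76 (SE 1.24), and -0.45 (SE 0.96) with the block.

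Fosl1, which encodes FRA-1, the FOS protein of migrating and wounded epithelium, varied most. It was at 259, 214, 1.42 and 1.45 TPM in vehicle mice 1 to 4 and 53.2, 80.8, 3.23 and 2.95 TPM in inhibitor mice 1 to 4. The ears numbered 1 and 2 in both groups were all at 53.2 TPM or more and those numbered 3 and 4 all at 3.23 TPM or less, so that the whole range was 182-fold. Its within-group SD on log2 CPM, 3.69, exceeded that of 99.9% of genes tested, and its log2 fold change was -2.04 (SE 1.78). In vehicle mice 3 and 4 it rested on 26 and 27 reads. Fosl1 overlaps Ccdc85b in RefSeq's annotation and its counts were not whole in any of the 8 libraries, so some of its reads may be shared. Ccdc85b itself ranged from 11.6 to 21.6 TPM, and the labels do not say whether strand was used in counting.

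The make-up of the FOS family therefore differed by ear. Of the summed TPM of Fos, Fosb, Fosl1 and Fosl2, the last being the more steadily expressed relative that encodes FRA-2, Fosl1 held 54.3, 43.4, 3.29 and 2.58% in vehicle mice 1 to 4 and 42.2, 36.7, 5.18 and 3.25% in inhibitor mice 1 to 4. Fosl2 held 13.7, 16.9, 62.8 and 47.9% in vehicle and 28.4, 25.2, 38.04 and 34.0% in inhibitor mice. Fosl1 was the largest share in all 4 ears numbered 1 and 2. In the ears numbered 3 and 4 Fosl2 led in both vehicle mice and Fos in both inhibitor mice. Fos held 28.7% and 47.3% in vehicle mice 3 and 4, so in vehicle mouse 4 it was nearly level with Fosl2 at 47.9%. In inhibitor mice 3 and 4 Fos held 49.5% and 56.5%. These shares are of transcripts, and no test was made on them.

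Junb and Jun encode the inducible JUN partners, of which Junb restrains proliferation and cytokine output in mouse epidermis. Junb stood at 1404, 1763, 179 and 246 TPM in vehicle mice 1 to 4 and 328, 860.0, 228 and 244 TPM in inhibitor mice 1 to 4. The 3 high ears lay at 860.0 TPM or more and the other 5 at 328 TPM or less, with the vehicle extremes 9.82-fold apart. Its log2 fold change was -1.38 (SE 0.91), and -0.83 (SE 0.51) with the block.

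Jun was at 125, 181, 28.5 and 41.0 TPM in vehicle mice 1 to 4 and 22.2, 112, 33.3 and 43.7 TPM in inhibitor mice 1 to 4. Here the lowest ear of all was inhibitor mouse 1, while inhibitor mouse 2 was close to vehicle mouse 1. The fold change of Jun was -1.07 (SE 0.81) on the log2 scale, with same-number differences of -2.80, -0.98, 0.26 and 0.11 log2 CPM. Of the summed TPM of Jun, Junb and Jund, their less inducible relative, Junb held 83.8, 83.6, 57.5 and 61.6% in vehicle mice and 73.6, 78.7, 64.1 and 61.2% in inhibitor mice. Junb led in every ear, and Jund held more than 20% in the 5 ears where Junb was low and 11.03% or less in the other 3.

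**Figure D2:**
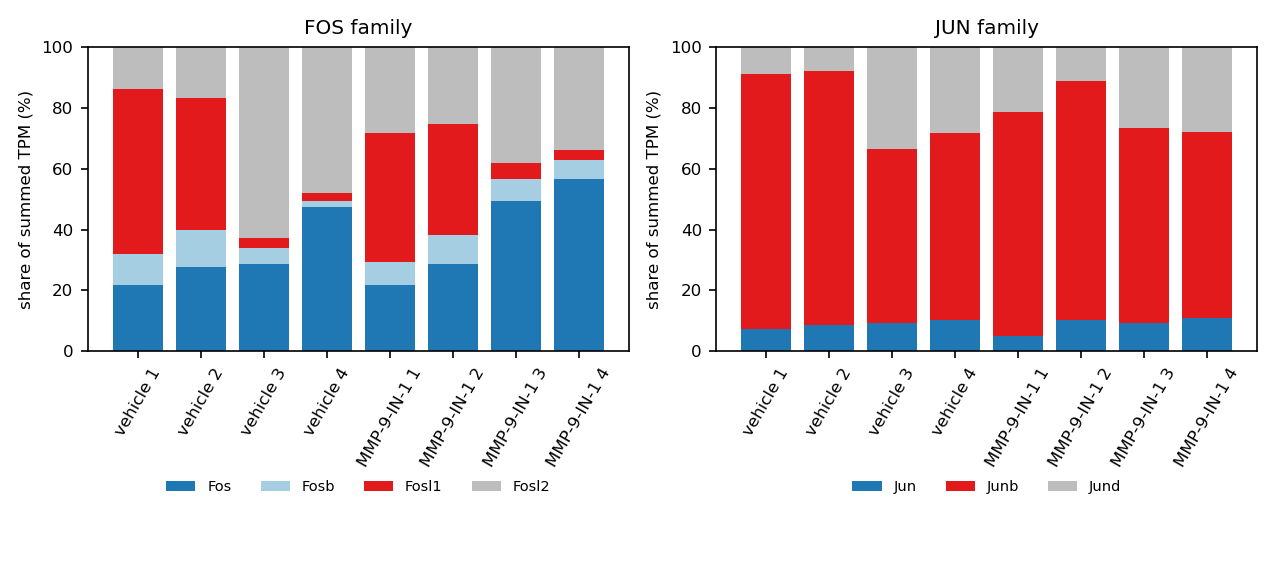
Share of the summed TPM (%, stacked from 0 to 100) held by each FOS family gene (left) and JUN family gene (right) in the 8 ears. Fosl1 takes from 36.7% to 54.3% of the FOS family in ears numbered 1 and 2 and at most 5.18% in ears numbered 3 and 4, while Junb is the largest JUN share in every ear.

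Egr1, whose protein binds GC-rich promoters after growth factor or injury signals, followed Junb closely. Egr1 stood at 161, 253, 16.5 and 22.3 TPM in vehicle mice 1 to 4 and 28.9, 102, 31.2 and 28.9 TPM in inhibitor mice 1 to 4. The inhibitor ears other than mouse 2 lay together between 28.9 and 31.2 TPM, above vehicle mice 3 and 4. Its log2 fold change was -1.53 (SE 1.01), with same-number differences of -2.80, -1.60, 0.95 and 0.39 log2 CPM. Centred profiles of Egr1 and Junb differed by a root mean square of 0.25 log2 units over the 8 libraries.

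Atf3, a repressor of inflammatory genes in mouse macrophages, stood at 84.2, 117, 18.8 and 23.7 TPM in vehicle mice 1 to 4 and 17.99, 58.2, 18.8 and 30.0 TPM in inhibitor mice 1 to 4. Inhibitor mouse 1 was the lowest ear, next to vehicle mouse 3 and inhibitor mouse 3. The log2 fold change of Atf3, -1.22 (SE 0.77), had the smallest unadjusted p of the 10, 0.149. Its profile was nearest to that of Jun, with a root mean square difference of 0.19 log2 units, the smallest of any pair among the 10.

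The Ier genes differed in range. Ier2 stood at 224, 275, 63.2 and 70.6 TPM in vehicle mice 1 to 4 and 101, 157, 74.3 and 74.4 TPM in inhibitor mice 1 to 4. It spanned 4.35-fold, the least of the 9 genes that shared the 3 high ears, with a log2 fold change of -0.89 (SE 0.63). Ier3 stood at 2139, 2463, 71.4 and 106 TPM in vehicle mice 1 to 4 and 247, 1106, 90.8 and 117 TPM in inhibitor mice 1 to 4. With a span of 34.5-fold and 31317 reads in vehicle mouse 2, Ier3 was the most abundant of the 10 on average, although Junb exceeded it in 5 of 8 ears. Its log2 fold change was -1.87 (SE 1.37), with same-number differences of -3.43, -1.45, 0.38 and 0.16 log2 CPM.

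Myc differed from these genes in its highest ear and in its narrower range. It stood at 77.0, 58.1, 59.6 and 52.1 TPM in vehicle mice 1 to 4 and 134, 69.4, 60.5 and 51.0 TPM in inhibitor mice 1 to 4. The highest ear was inhibitor mouse 1, an ear in which Jun and Atf3 were at their lowest, and the other 7 ears lay between 51.04 and 77.0 TPM. On log2 CPM, Myc stood at 7.07, 6.85, 6.34 and 6.15 in vehicle mice 1 to 4. The values in inhibitor mice 1 to 4 were 7.56, 6.81, 6.39 and 6.14. On that scale the ears numbered 1 and 2 in both groups were all above those numbered 3 and 4. The estimate was 0.18 (SE 0.34), and it became -0.17 without inhibitor mouse 1. Its within-group SD of 0.53 on log2 CPM lay at percentile 66.6 of genes tested, whereas the other 9 lay between 89.1 and 99.9. By root mean square difference of centred log2 CPM over the 8 libraries, the most similar of the other 15095 genes were Kri1 (0.0601 log2 units), whose yeast relative acts in ribosome assembly, Usp36 (0.0679), a nucleolar deubiquitinase, and Cfap298 (0.0921), a cilia protein. Kri1 stood at 31.3, 25.2, 25.6 and 21.4 TPM in vehicle mice 1 to 4 and 54.2, 26.6, 23.3 and 20.7 TPM in inhibitor mice 1 to 4, and it too was highest in inhibitor mouse 1.

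**Figure D3:**
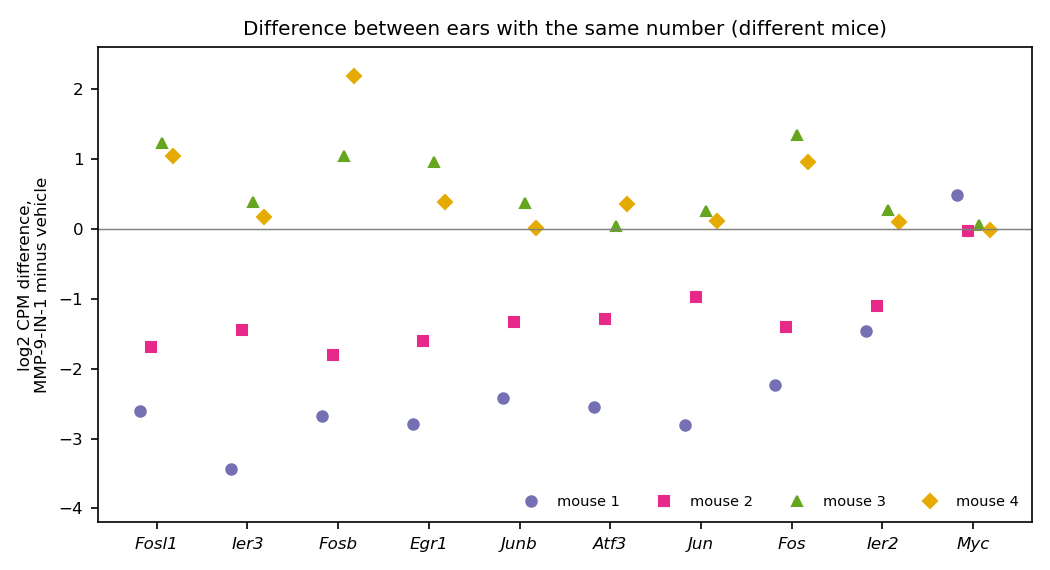
Difference in log2 CPM between the inhibitor and the vehicle ear of the same number (different mice) for each gene; symbols are mouse numbers 1 to 4 and the grey line is no difference. Numbers 1 and 2 lie below the line and numbers 3 and 4 above it for all genes except Myc.

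Seen by number, 9 of 10 genes were lower in the inhibitor ear for number 1 (median -2.57 log2 CPM) and 10 of 10 for number 2 (-1.37). For number 3, 0 were lower (median 0.38), and for number 4 only Myc was, by -0.013 (median 0.26). Over all genes tested, the medians for the 4 numbers lay between 0.0097 and 0.036. The FOS genes stood highest for numbers 3 and 4, with 1.35 and 0.96 for Fos, 1.04 and 2.18 for Fosb and 1.23 and 1.05 for Fosl1. Whether the inhibitor difference itself differs between mouse numbers was not tested.

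**Figure D4:**
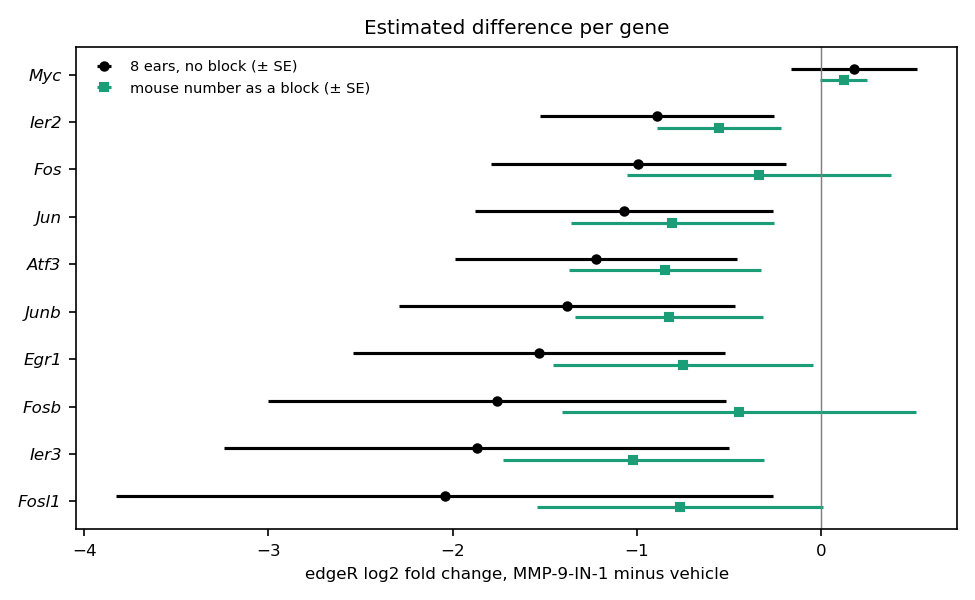
edgeR log2 fold change (MMP-9-IN-1 minus vehicle) of each gene with its SE, over 8 ears without a block (circles) and with the mouse number as a block (squares). All estimates except Myc are below 0 in both fits, and for Fosb the estimate moves from -1.76 to -0.45.

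By mean TPM over the 8 ears the order was Ier3 (792), Junb (657), Ier2 (130.0), Egr1 (80.5), Fosl1 (77.0), Jun (73.3), Myc (70.3), Fos (56.5), Atf3 (46.0) and Fosb (19.0). Neighbours were compared by the mean of their log2 TPM ratio within a library against its SD. Junb exceeded Ier2 by 2.01 ± 0.49 (SD, n = 8), Ier2 exceeded Egr1 by 1.15 ± 0.67 and Atf3 exceeded Fosb by 1.98 ± 1.20, each in 8 of 8 ears. Ier3 and Junb, and the genes from Egr1 down to Atf3, did not differ from their neighbours beyond that spread. Fosb was at percentile 68.1 of all genes in the table by mean TPM and Ier3 at 99.0.

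The genes whose centred log2 CPM profile was nearest to that of Fos, among 15095 others, were Pdpn (root mean square difference 0.239 log2 units), which encodes podoplanin of lymphatic vessels and activated stroma and epidermis, Il1rl1 (0.298), the interleukin-33 receptor, Ifitm6 (0.302), a myeloid membrane protein, Dusp1 (0.341), an early response phosphatase that inactivates mitogen-activated protein kinases, and Tnfaip6 (0.344), a hyaluronan-binding protein induced by TNF. Pdpn stood at 296, 365, 38.04 and 70.2 TPM in vehicle mice 1 to 4 and 96.2, 205, 68.1 and 108 TPM in inhibitor mice 1 to 4, with the same 3 ears on top. Among the 10, Atf3 came nearest to Fos, at 0.412 and rank 20, and Fosl1 was farthest, at 2.28 and rank 14589. Jun, Ier2, Junb and Egr1 ranked 77, 105, 122 and 134, and Fosb, Myc and Ier3 ranked 2822, 4895 and 5074. The root mean square difference counts the size of the swings as well as their order, and the profiles nearest to Fos share the contrast between the 3 high ears and the rest.

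The wider early response was read from lists of related genes, in none of which any gene passed the adjusted threshold, so each list is described by its estimates. Over all genes tested, 45.5% of estimates were lower. Genes of a list that share their high ears are not separate observations, so counts of lower estimates, in the marker lists too, are descriptions and not tests. Of 16 tested AP-1 partners and related bZIP genes, 11 had a lower and 5 a higher estimate, with a median log2 fold change of -0.40. Cebpb, a bZIP regulator of inflammatory genes, had -1.22 (SE 0.67), Jund -0.52 (SE 0.29), and Maff, a small MAF protein, -1.57 (SE 0.996). Maff stood at 105, 117, 10.9 and 13.0 TPM in vehicle mice 1 to 4 and 18.2, 56.2, 11.3 and 16.2 TPM in inhibitor mice 1 to 4, with the 3 high ears of the Fos profile again highest.

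Of 27 early response feedback and signalling genes, which include phosphatases and RNA-decay factors that switch the response off, 26 had a lower estimate and the median was -0.97. Zfp36, which encodes the mRNA-destabilising protein tristetraprolin, had -1.47 (SE 0.77), Sgk1, a serum- and glucocorticoid-induced kinase, -1.40 (SE 0.60), and Sik1, a salt-inducible kinase, -0.73 (SE 0.35). Zfp36 stood at 507, 683, 89.2 and 143 TPM in vehicle mice 1 to 4 and 102, 263, 110.2 and 147 TPM in inhibitor mice 1 to 4. Of 15 other early transcription factors 11 had a lower estimate (median -0.34). Csrnp1, a nuclear protein induced by AXIN1, had -2.03 (SE 1.14), Klf4, a Krüppel-like factor of the epidermal barrier, -0.46 (SE 0.25), and Per1, a clock gene also induced by glucocorticoids, -1.02 (SE 0.40).

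Relatives of Egr1 did not all share its high ears. Of 7 tested EGR, NAB and NR4A genes, 5 had a lower estimate (median -0.32). Egr2 had -0.32 (SE 0.23) and Egr3 0.30 (SE 0.26). Egr3 stood at 10.3, 11.5, 23.8 and 16.5 TPM in vehicle mice 1 to 4 and 26.6, 16.4, 25.6 and 13.7 TPM in inhibitor mice 1 to 4, so vehicle mice 1 and 2, the highest ears for Egr1, were the lowest for Egr3. Nr4a3, an orphan nuclear receptor of the early wave, had -0.997 (SE 0.84) and was high in the same 3 ears as Fos.

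Genes upstream of the response had a narrow summed level, though single members did not. The 22 kinases and regulators had 12 lower and 10 higher estimates, a median of -0.018, and a summed level between 719 and 815 TPM over the 8 ears. Elk4, a partner of serum response factor, had -1.08 (SE 0.61) and stood at 7.39, 7.59, 1.82 and 1.82 TPM in vehicle mice 1 to 4 and 2.64, 3.47, 2.32 and 1.79 TPM in inhibitor mice 1 to 4. Elk1, another such partner, had 0.31 (SE 0.23), and Map2k3, a kinase of the p38 branch, -0.61 (SE 0.45).

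The MYC network, its dimer partner and the antagonists that compete for it, had 10 of 11 estimates lower, with a median of -0.11. Max, the partner, had -0.25 (SE 0.19), Mxd1, an antagonist, -0.49 (SE 0.57), and Mycn, a MYC relative, -0.36 (SE 0.29). Of 13 MYC target genes 9 had a lower estimate (median -0.071). Odc1, which makes the first polyamine, had -0.69 (SE 0.55), Ccnd2, a G1 cyclin, 0.37 (SE 0.22), and Cdk4, its kinase partner, 0.12 (SE 0.12). The summed target level was 3856, 3019, 2699 and 2407 TPM in vehicle mice 1 to 4 and 4008, 3053, 2906 and 2345 TPM in inhibitor mice 1 to 4, highest in inhibitor mouse 1, the ear with the most Myc.

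Known AP-1 target genes of skin had 17 of 18 estimates lower, with a median of -1.53, and their summed level was 35412, 48468, 5076 and 4420.0 TPM in vehicle mice 1 to 4 and 6038, 27130.5, 4038 and 4949 TPM in inhibitor mice 1 to 4. The 3 ears with the most Fos and Junb were again the highest. Sprr1b and Sprr1a, small proline-rich precursors of the cornified envelope, had -2.73 (SE 1.04) and -2.28 (SE 1.07), and Ivl, the involucrin gene, -0.24 (SE 0.12). The list holds S100a8 and S100a9, which are also in the neutrophil list, so the sums of these lists share genes and are not independent. Loricrin was not analysed here.

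Some cell type markers moved with these levels and others did not. The 10 neutrophil markers summed to 30808, 35508, 4230.0 and 3536 TPM in vehicle mice 1 to 4 and 3512, 23442, 3090.2 and 3786 TPM in inhibitor mice 1 to 4, so the 3 ears high in immediate early transcripts were also the 3 high in neutrophil transcripts, and 9 of 9 tested markers had a lower estimate. In inhibitor mouse 1 the neutrophil sum lay within the range of the 4 ears numbered 3 and 4. Of the 10 genes, 6 lay above the range of those ears in that mouse (Fosb, Fosl1, Junb, Ier2, Ier3 and Myc), 2 within it (Fos and Egr1) and 2 below it (Jun and Atf3). For Atf3 the gap was small, 17.99 TPM against 18.76 TPM in the lowest of those ears. Myc did not share the 3 high ears. These are values of 1 library, and no test was made on them. The 5 red blood cell markers summed to 16666, 17194, 194 and 667 TPM in vehicle mice 1 to 4 and 165, 4539, 812 and 766 TPM in inhibitor mice 1 to 4, again highest in the 3 ears. Keratinocyte markers were lowest in vehicle mice 1 and 2, at 11486, 10025, 27031 and 24741 TPM in vehicle mice 1 to 4. In inhibitor mice 1 to 4 they summed to 21353, 16068, 24447 and 16059 TPM, so inhibitor mouse 4 was as low as inhibitor mouse 2. No marker of these lists was at 0 in every ear, while Mpo and Slc4a1 were at 0 in some.

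Macrophage and monocyte markers summed to 2494, 2524, 739 and 1221 TPM in vehicle mice 1 to 4 and 239, 1924, 848 and 1706 TPM in inhibitor mice 1 to 4. They too were highest in the 3 ears high in immediate early transcripts, though inhibitor mouse 4 came close to inhibitor mouse 2. Of the 8 estimates, 3 were lower. Skeletal muscle markers summed to 833, 231, 1049 and 1310.4 TPM in vehicle mice 1 to 4 and 2348, 309, 2593 and 2624 TPM in inhibitor mice 1 to 4, lowest in vehicle mouse 2 and inhibitor mouse 2, and all 6 had a higher estimate. Heat shock genes, which like immediate early genes can rise while tissue is handled, summed to 3767, 3757, 2823 and 2834 TPM in vehicle mice 1 to 4 and 3126, 2856, 2906 and 2971 TPM in inhibitor mice 1 to 4, highest in vehicle mice 1 and 2, with 8 of 10 estimates lower and a median log2 fold change of -0.65. The part of cell mixture and of handling in the immediate early levels was not tested.

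**Figure D5:**
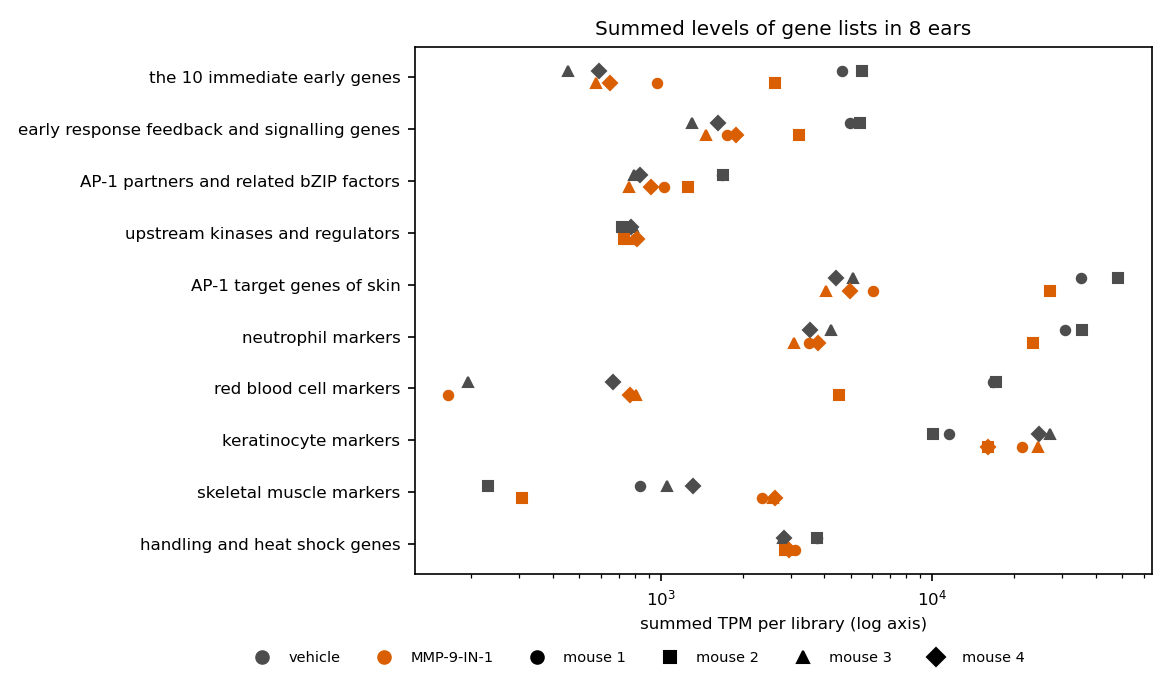
Summed TPM (log axis) of the 10 genes and of related and marker gene lists in vehicle (grey) and MMP-9-IN-1 (orange) ears; symbols are mice 1 to 4. The 10 genes, AP-1 targets, neutrophil markers and red blood cell markers are highest in vehicle mice 1 and 2 and inhibitor mouse 2, while the upstream kinases and regulators stay between 719 and 815 TPM. The AP-1 target and neutrophil lists share S100a8 and S100a9.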

How the data were processed

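Polyadenylated RNA of 8 ears was sequenced on a DNBSEQ instrument, per the labels' protocols. Reads were aligned with HISAT to GRCm39, per the submitters' processing notes, which give no version. The sources used here name neither a counting tool nor an annotation. The authors deposited estimated counts, TPM and FPKM per gene and library, TPM and FPKM being adjusted by them for gene length and depth. Between 33.7% and 35.3% of deposited counts per library were not whole (tolerance 1e-09), so they were rounded. A further 6 columns of group means were not used.

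Counts were tested with edgeR 4.0.16 (filterByExpr, TMM, quasi-likelihood, no covariate), inhibitor minus vehicle, adjusted over 15096 genes at a threshold of 0.05. Precision is given as the SE of each log2 fold change, with a median of 0.26 over genes. Log2 CPM values carry TMM factors between 0.815 and 1.08 and a prior count of 0.5. DESeq2 1.42.0, limma 3.58.1 and other filters, scalings and left-out libraries were alternatives. Fits that leave out mouse numbers were added after seeing the data. The genes, lists and tests were chosen with earlier results of these data known. Besides the 10 genes, the rule named 3 genes with the smallest p of each of 8 related lists, 5 genes most like Fos and 3 most like Myc; Ccdc85b was chosen after its values were seen. There were also 10 marker lists.

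Libraries of a group differed beyond sampling noise (chi-square per degree of freedom at least 22.8), so 8 replicates were counted. Titles name separate mice. Deviations from the group means of same-numbered libraries correlated at 0.40, 0.69, 0.65 and 0.67 for numbers 1 to 4, all over 0.1, so the number was taken to pair the samples, although vehicle 1 with inhibitor 2 and vehicle 4 with inhibitor 3 correlated at 0.53 and 0.67. Vehicle and inhibitor libraries within numbers 1 and 2, or within 3 and 4, all correlated positively, from 0.29 to 0.69. Those across that division all correlated negatively, from -0.66 to -0.20. The correlations thus show numbers 1 and 2 apart from 3 and 4 and do not single out the same-number pairs. The pairing comes from these values, not from the labels.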

Additional observations from a re-analysis of the deposited data

Results flagged for a closer look

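Egr1 in inhibitor mouse 2, at 7.73 log2 CPM, stood far above the other 3 inhibitor ears: its gap to the nearest of them was 0.94 of the group's whole range, above the 95% critical value of Dixon's test for 4 samples. Of 20 groups of 4 libraries examined (10 genes in 2 groups) 1 was of this kind, and chance gives about 1 in 20. In 8 of the other 9 genes, all but Myc, inhibitor mouse 2 was also the highest inhibitor ear, with gaps below that critical value.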

How the results depend on the processing

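No setting called any gene at an adjusted p of 0.05, nor at 0.1 in the edgeR fit. With other filters, scalings, DESeq2, TPM or FPKM values, the block and single libraries left out, 9 of the 10 genes had a lower estimate, and all 10 without inhibitor replicate 1, where Myc had -0.17. The median log2 fold change of the 10 ran from -2.03 to -0.61 with single libraries left out. The mouse number as a block gave a median of -0.76, with 0 genes called, 724 genes at an unadjusted p under 0.05 (4.8%) and 0 members among them; it changed no call. Totals without TMM moved the median of all genes to 0.12 and log2(TPM + 1) to 0.15; the median of the 10 was then -1.09 and -0.58.

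For 9 genes, all but Myc, direction turned under 2 settings. limma-voom with quality weights, which gave vehicle mice 1 and 2 weights of 0.333 and 0.316 and vehicle mice 3 and 4 weights of 2.61 and 2.03, left 0 genes lower, a median of 0.27 and values of 0.85 (Fos), 1.35 (Fosb), 1.42 (Fosl1), 0.074 (Jun), 0.20 (Junb), 0.61 (Egr1), 0.014 (Atf3), 0.17 (Ier2) and 0.35 (Ier3). Without mouse numbers 1 and 2, 0 were lower, the median was 0.21 and the values were 1.07 (Fos), 1.55 (Fosb), 1.13 (Fosl1), 0.15 (Jun), 0.15 (Junb), 0.63 (Egr1), 0.19 (Atf3), 0.15 (Ier2) and 0.23 (Ier3); 3 members then had an unadjusted p under 0.05 (558 of 15272 genes did), the lowest adjusted p being 0.90. Without mouse numbers 3 and 4 the median was -1.68, 9 were lower and 5 had an unadjusted p under 0.05 (2515 of 14924 genes did). With the block, Fos and Fosb turned to 0.32 and 0.35 without number 1 and to 0.10 and 0.23 without number 2. The causes were not tested. Fits on 4 libraries estimate the spread from 2 per group.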

Other observations

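Markers of T cells, cartilage and fibroblasts also divided by mouse number in both groups, and endothelial markers did not. The T cell markers analysed, receptor and co-receptor genes, summed to 4.09, 5.20, 76.4 and 147 TPM in vehicle mice 1 to 4 and 8.38, 20.6, 69.9 and 126 TPM in inhibitor mice 1 to 4, so all 4 ears numbered 1 and 2 were below all 4 ears numbered 3 and 4. Cartilage markers, led by matrix genes of the ear plate, summed to 48.5, 36.2, 117 and 126 TPM in vehicle mice 1 to 4 and 37.7, 59.9, 144 and 161 TPM in inhibitor mice 1 to 4, with the same division. Fibroblast markers, with that division too, summed to 1275, 1775, 1933 and 3515 TPM in vehicle mice 1 to 4. In inhibitor mice 1 to 4 they summed to 1053, 1716, 1932 and 4366 TPM. Endothelial markers, without that division, summed to 93.0, 69.8, 69.2 and 95.5 TPM in vehicle mice 1 to 4. In inhibitor mice 1 to 4 they summed to 53.3, 85.9, 68.9 and 130.1 TPM. Fibroblast and endothelial markers were both highest in inhibitor mouse 4. No gene of these lists passed the adjusted threshold between inhibitor and vehicle, where 0% of genes did, and the median log2 fold changes were -0.094 for T cell, 0.14 for cartilage, 0.16 for fibroblast and -0.093 for endothelial markers. With the mouse number as a block these medians were 0.37, 0.078, 0.24 and -0.11, so the sign turned for T cell markers alone.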
